A study of Homo sapiens with 6 samples.

Results

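The genes described are the E2F transcription factors E2F1 to E2F8 and their DNA-binding partners, the DP proteins encoded by TFDP1 and TFDP2. They were chosen by platform gene symbol, whatever their values, and gave 10 of 19775 genes and 22 of 54613 probe sets that are not controls. RNA came from Hep3B, an established human hepatocellular carcinoma line that lacks p53, and was hybridised to 6 Affymetrix HG-U133 Plus 2 arrays. The miR-17 TuD group (3 arrays) carried a lentiviral inhibitor of the miR-17 family, a tough decoy RNA that holds microRNA binding sites, and the NC TuD group (3 arrays) carried a control decoy of the same kind. Per the labels' protocols, cells of both groups took up virus over 48 hours (multiplicity of infection 5) and were kept under puromycin, and colonies that survived 2 weeks were combined into stable lines. Each group is thus a pool of transduced cells that also carries the vector and its resistance gene, and no source used here names the promoter behind the decoys. Nothing in the labels ties the 3 samples of either group to separate cultures, and p-values cover only their spread, which may be technical. The descriptions also carry the code 72HR on every array, with PLUSDOX where the decoy was miR-17 TuD and NODOX where it was NC TuD. The code is not explained, and what it stands for cannot be told apart from the decoy.

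As background, most E2F proteins bind DNA as heterodimers with a DP protein, and E2F1, E2F2 and E2F3 activate the genes that take a cell into DNA replication unless the retinoblastoma (RB) family of pocket proteins holds them. E2F4 and E2F5 mainly repress the same genes together with pocket proteins, E2F6 represses without them through polycomb complexes, and E2F7 and E2F8 are atypical repressors that bind DNA without a DP partner and are themselves induced by E2F. The miR-17 family represses mRNAs that carry a match to its seed. E2F1, E2F2 and E2F3 are reported targets, and E2Fs in turn activate the host gene of the miR-17 cluster.

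The mature microRNAs of the family are shown because their shared seed is what the decoy addresses. RefSeq (GRCh38.p14) holds 8 mature human microRNAs with the seed of miR-17-5p, and the 6 below come from the 3 related miR-17 clusters on chromosomes 13, 7 and X. Sequences run 5′ to 3′, and capitals mark the seed, bases 2 to 8.
hsa-miR-17-5p (chr13:91350618-91350640, plus strand): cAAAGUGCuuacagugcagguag
hsa-miR-20a-5p (chr13:91351072-91351094, plus strand): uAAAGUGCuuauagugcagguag
hsa-miR-20b-5p (chrX:134169850-134169872, minus strand): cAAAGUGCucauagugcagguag
hsa-miR-93-5p (chr7:100093815-100093837, minus strand): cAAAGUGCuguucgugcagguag
hsa-miR-106a-5p (chrX:134170244-134170266, minus strand): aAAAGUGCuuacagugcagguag
hsa-miR-106b-5p (chr7:100094043-100094063, minus strand): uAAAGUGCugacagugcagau
Aligned from base 1, miR-106a-5p has the same base as miR-17-5p at 22 positions, miR-20a-5p and miR-20b-5p at 21, miR-93-5p at 19 and miR-106b-5p at 18. The binding sites of the members' mRNAs were not analysed here.

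All levels below are the authors' deposited log2 expression values, and every difference is miR-17 TuD minus NC TuD on that log2 scale. A probe set is a group of array probes read as 1 value. The test was limma fitted to the 32768 probe sets over a filter on low values, and a probe set is called past the threshold at a Benjamini-Hochberg adjusted p under 0.05. The 22 member probe sets all passed the filter. The smallest 2-sided p that an exact permutation of 3 against 3 arrays can give is 0.1, so no permutation test of a single probe set could reach 0.05. The number of arrays limits the precision.

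On the 6 arrays the lowest level was 2.12 and the highest 16.3, and 34.9% to 35.4% of probe sets lay at the lowest. Correlations across probe sets were 0.9994 to 0.9996 within groups and 0.9988 to 0.9991 between them. On the second principal component, with 15.5% of the variance across genes, miR-17 TuD replicate 3 stood at -10.4, against 8.55 and 3.23 for the other miR-17 TuD arrays and -1.27 to 0.15 for the NC TuD arrays. It was the highest miR-17 TuD array for 11 of the 20 member probe sets that varied. Of 9 hepatocyte markers measured 8 fell, against 4.60% of all genes tested that were called lower. Summed over the 9, the log2 levels were 109.4 to 110.2 in the miR-17 TuD arrays and 115.5 to 116.0 in the NC TuD arrays. The part of this shift in the results below was not tested. The hepatocyte marker ALB read 15.99 ± 0.033 in the miR-17 TuD arrays and 16.20 ± 0.036 in the NC TuD arrays (SD, n = 3 each). Its difference of -0.21 was among the smaller ones, which ran from -0.15 for APOA2 to -1.31 for APOA1, 2.48-fold lower. AFP differed by -1.27 and FGB by -1.26. SERPINA1 was the marker that did not fall (0.13, adjusted p = 0.0912 in limma). Over the filter described above lay 2 of 4 blood cell markers, 3 of 5 fibroblast markers and 1 of 4 endothelial markers. PTPRC and CD3E of the first list, COL3A1 and DCN of the second and VWF, KDR and CDH5 of the third lay at 2.12, the lowest value. The fibroblast markers COL1A1 and COL1A2 lay far above it, with means over all arrays of 12.62 and 9.13. Both were higher in the miR-17 TuD arrays, by 0.34 and 0.44 (adjusted p = 0.277 and 0.193 in limma). CD14, HBB, PDGFRB and PECAM1, the others over the filter, had means of 3.78, 3.13, 3.82 and 2.43. The summed fibroblast levels were 29.5 to 30.6 in the miR-17 TuD arrays and 29.4 to 29.5 in the NC TuD arrays, with no gene of that list past the threshold. In such bulk RNA, fewer cells of a type and less RNA per cell cannot be told apart. Summed over the list with 10 proliferation markers, the log2 levels ranged from 117.4 to 118.4 in the miR-17 TuD arrays and from 118.1 to 118.4 in the NC TuD arrays.

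E2F1 was higher in the miR-17 TuD arrays on both of its probe sets, by 1.34-fold and 1.26-fold. A single TFDP1 probe set was also higher, by 1.17-fold. No member probe set was called lower and no E2F repressor probe set was called in this fit, though TFDP2 244043_at and E2F8 were called lower under a stricter filter, the 60th percentile (adjusted p = 0.0207 and 0.048 in limma). Of the 22 member probe sets 3 were called, all higher, against a background of 5.83% of all probe sets tested (3.35% higher and 2.48% lower). By limma with 1 probe set a gene, E2F1 was the only 1 of the 10 genes called, against 11.4% of 13949 genes tested. The median difference over the member probe sets was 0.034. With no filter on low values 0 of the 22 were called in limma, against 1.01% of 54613 probe sets, while 7 had an unadjusted p under 0.05 in the fit with the filter.

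**Figure D1:**
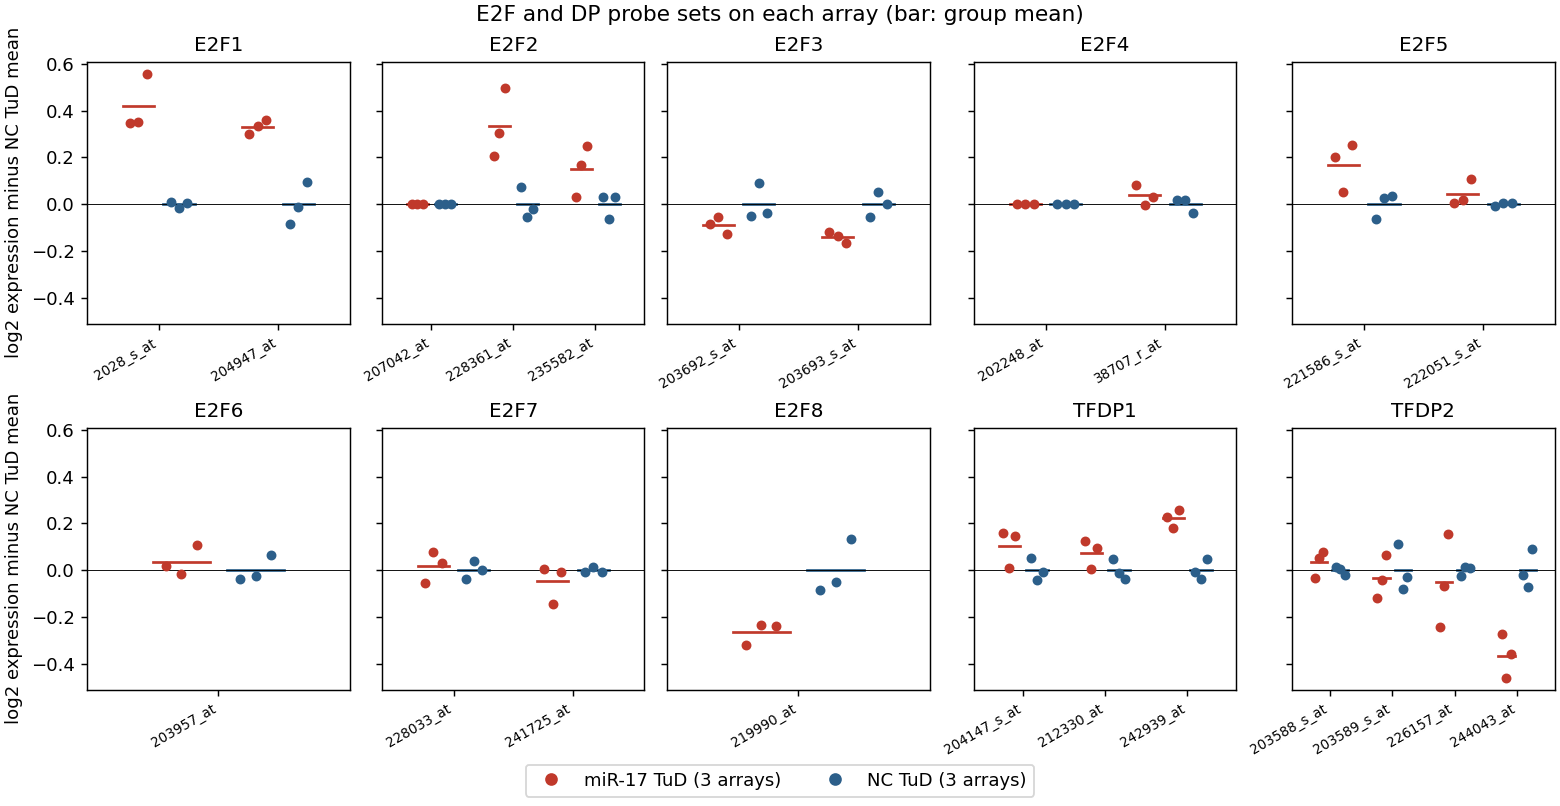
Log2 expression of each E2F and DP probe set on each array, minus the mean of the 3 NC TuD arrays for that probe set; red points are miR-17 TuD arrays, blue points NC TuD arrays, and short bars group means. Both E2F1 probe sets, E2F2 228361_at, E2F5 221586_s_at and TFDP1 242939_at have all red points above all blue points. E2F8, both E2F3 probe sets and TFDP2 244043_at have all red points below.

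Among the activators, E2F1 is the member most often linked to the miR-17 family. Probe set 204947_at read 7.67, 7.70 and 7.73 in the miR-17 TuD arrays, against 7.28, 7.35 and 7.46 in the NC TuD arrays. Probe set 2028_s_at read 7.03, 7.04 and 7.24 in the miR-17 TuD arrays, against 6.70, 6.67 and 6.69 in the NC TuD arrays. Neither probe set had overlapping groups, and replicate 3 stood above the other miR-17 TuD arrays on 2028_s_at.

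E2F1 rose by 0.33 on 204947_at (95% confidence interval 0.20 to 0.47, adjusted p = 0.0388 in limma) and by 0.42 on 2028_s_at (0.25 to 0.59, adjusted p = 0.04 in limma). Both calls ended when the filter was dropped (adjusted p = 0.0931 and 0.0957). Among the 6 fits that left out 1 array, 204947_at was called in 0 (adjusted p from 0.0545 to 0.144 in limma) and 2028_s_at in 1, the fit without miR-17 TuD replicate 3, where its difference was 0.35 (adjusted p = 0.0168), the others giving up to 0.147. The differences stayed between 0.29 and 0.45 in these fits. At the gene level E2F1 had an adjusted p of 0.0255 in limma and was called in 1 of the 6 fits, that without NC TuD replicate 3.

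E2F2, the second activator, was measured by 3 probe sets that did not behave alike. On 228361_at it read 8.95, 9.05 and 9.25 in the miR-17 TuD arrays, against 8.82, 8.69 and 8.73 in the NC TuD arrays. All 3 miR-17 TuD arrays lay above all 3 NC TuD arrays. The difference of 0.34 (0.10 to 0.57) was close to that of E2F1 in size, with a wider interval and an adjusted p of 0.11 in limma. On 235582_at the groups met, with 5.64, 5.78 and 5.86 in the miR-17 TuD arrays and 5.64, 5.54 and 5.64 in the NC TuD arrays (0.15, adjusted p = 0.281). Probe set 207042_at gave 3.06 on all 6 arrays, equal within 0.001, and so carries no information on a difference. Such fixed values occurred in 2322 of the probe sets tested.

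E2F3, the third activator, did not follow E2F1 in these arrays. On 203693_s_at it read 11.80, 11.79 and 11.76 in the miR-17 TuD arrays, against 11.87, 11.97 and 11.92 in the NC TuD arrays. The groups did not overlap, with the miR-17 TuD arrays lower by 0.14 (interval -0.22 to -0.06, adjusted p = 0.0825 in limma). On 203692_s_at it read 10.89, 10.92 and 10.85 in the miR-17 TuD arrays, against 10.92, 11.06 and 10.93 in the NC TuD arrays (-0.09, adjusted p = 0.35). These groups did not overlap either, though the highest miR-17 TuD array and the lowest NC TuD array were almost equal. The upper bounds of the intervals on the 2 E2F3 probe sets were -0.06 and 0.03, below the lower bounds of the E2F1 intervals, 0.20 and 0.25. Whether E2F1 and E2F3 differ in response was not tested itself.

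The canonical repressors gave 5 probe sets, none of them past the threshold in limma and none with an unadjusted p under 0.05. E2F4, the most abundant pocket-protein partner in resting cells, read 6.95, 6.87 and 6.90 on 38707_r_at in the miR-17 TuD arrays, against 6.89, 6.89 and 6.83 in the NC TuD arrays (0.04, interval -0.04 to 0.11). Its other probe set, 202248_at, was fixed at 5.24 on all 6 arrays. The E2F4 groups overlapped, and the E2F1 differences of 0.33 and 0.42 lie outside this interval.

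E2F5, which like E2F4 works with pocket proteins, read 9.43, 9.28 and 9.48 on 221586_s_at in the miR-17 TuD arrays, against 9.16, 9.25 and 9.26 in the NC TuD arrays. The groups did not overlap, though the lowest miR-17 TuD array lay just above the highest NC TuD array (0.17, interval -0.00025 to 0.34, adjusted p = 0.227 in limma). Probe set 222051_s_at lay near the lowest value, at 2.34 ± 0.056 and 2.29 ± 0.0081 (SD, n = 3 each, miR-17 TuD and NC TuD). E2F6, the polycomb-linked repressor, read 10.42, 10.38 and 10.51 in the miR-17 TuD arrays, against 10.36, 10.38 and 10.47 in the NC TuD arrays (0.04, interval -0.09 to 0.16). Its groups overlapped.

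Of the atypical repressors, E2F8 stood apart from E2F7 in its values. E2F8 read 10.47, 10.56 and 10.55 in the miR-17 TuD arrays, against 10.71, 10.74 and 10.92 in the NC TuD arrays. All miR-17 TuD arrays were below all NC TuD arrays, at 1.20-fold lower (-0.26, interval -0.44 to -0.09), with an unadjusted p of 0.0131 and an adjusted p of 0.106 in limma. E2F7 read 11.18, 11.31 and 11.26 on 228033_at in the miR-17 TuD arrays, against 11.19, 11.27 and 11.23 in the NC TuD arrays (0.02, interval -0.09 to 0.13). On 241725_at its difference was -0.05 (interval -0.17 to 0.07). The E2F7 groups overlapped on both probe sets.

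Set side by side, the 7 activator probe sets held 2 called, both of E2F1, and a median difference of 0.15. With 1 probe set a gene, 1 of the 3 activators was called, against 11.4% of all genes tested. The 8 probe sets of E2F4 to E2F8 held 0 called in limma, 1 with an unadjusted p under 0.05 (E2F8), and a median of 0.027. Over all probe sets tested 5.83% were called and 22.1% had an unadjusted p under 0.05, so a count of 0 among 8 is near that background. The activator class was not uniform, with 4 probe sets above 0, 2 below and 1 fixed. The difference between the classes was not tested.

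The DP genes gave 7 probe sets. TFDP1 encodes DP1, the partner shared by most E2Fs. Probe set 242939_at read 9.50, 9.45 and 9.53 in the miR-17 TuD arrays, against 9.27, 9.24 and 9.32 in the NC TuD arrays. The groups did not overlap, and TFDP1 rose by 0.22 on this probe set (0.14 to 0.31, adjusted p = 0.0344 in limma). On 212330_at, the TFDP1 probe set with the highest level, the level was 13.07 ± 0.063 in the miR-17 TuD arrays and 12.99 ± 0.043 in the NC TuD arrays (SD, n = 3 each; 0.08, interval -0.03 to 0.18, adjusted p = 0.377). On 204147_s_at the difference was 0.10 (interval -0.03 to 0.24, adjusted p = 0.329). The TFDP1 call thus rests on 1 of 3 probe sets. It ended in all 6 fits with an array left out (adjusted p from 0.0653 to 0.125) and when the filter was dropped (0.0833).

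TFDP2 encodes the related partner DP2. On 244043_at it read 8.19, 8.01 and 8.11 in the miR-17 TuD arrays, against 8.44, 8.40 and 8.56 in the NC TuD arrays. The groups did not overlap, at 1.29-fold lower in the miR-17 TuD arrays (-0.37, interval -0.54 to -0.19), just short of the threshold at an adjusted p of 0.0544 in limma. The other 3 TFDP2 probe sets overlapped between groups and centred near 0, at 0.03 on 203588_s_at (interval -0.05 to 0.12), -0.03 on 203589_s_at (-0.23 to 0.16) and -0.05 on 226157_at (-0.34 to 0.23). The interval of 244043_at does not meet that of 203588_s_at. Which transcripts each probe set reads was not analysed here.

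Across all members the groups did not overlap in 9 of 22 probe sets, with 5 where the miR-17 TuD arrays lay higher and 4 where they lay lower, against 27.2% of all probe sets tested (13.7% higher and 13.5% lower). An unadjusted p under 0.05 was found in 7 of 22, against 22.1% of all tested.

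**Figure D2:**
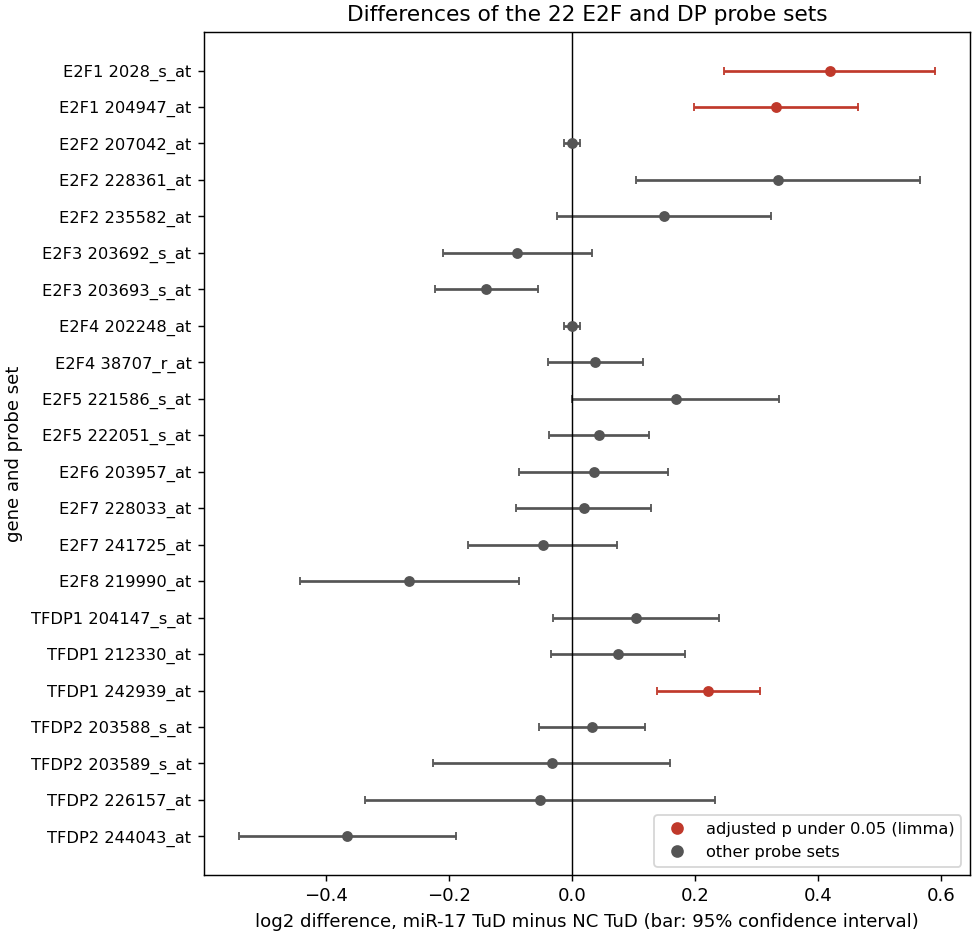
Log2 difference, miR-17 TuD minus NC TuD, of the 22 member probe sets with 95% confidence intervals from limma; red marks an adjusted p under 0.05. The E2F1 intervals lie between 0.20 and 0.59, and those of E2F4, E2F6 and E2F7 cross 0. Without passing the threshold, E2F2 228361_at lies wholly above 0 (0.10 to 0.57), and E2F8, E2F3 203693_s_at and TFDP2 244043_at lie wholly below 0. E2F2 207042_at and E2F4 202248_at were fixed on all arrays, so their narrow intervals carry no information on a difference.

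E2F1 and E2F2 are known to be controlled by E2F sites in their own promoters, which is why the promoter stretches of the 3 activators are shown. RefSeq promoter windows (GRCh38.p14) were found for 8 of the 10 members. The 250 bases before each start were searched on both strands for the E2F motif spelled TTTCCCGC, TTTCGCGC, TTTGCCGC or TTTGGCGC, with overlapping matches counted separately. Each stretch below is the 120 bases just before the start, on the gene's strand, with matches in capitals.
E2F1 (chr20:33686386-33686505, minus strand): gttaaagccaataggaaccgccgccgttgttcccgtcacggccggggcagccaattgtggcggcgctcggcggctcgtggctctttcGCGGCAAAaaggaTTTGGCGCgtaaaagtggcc
E2F2 (chr1:23531234-23531353, minus strand): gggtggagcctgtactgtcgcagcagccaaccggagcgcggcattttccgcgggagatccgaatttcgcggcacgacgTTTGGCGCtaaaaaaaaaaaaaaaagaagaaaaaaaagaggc
E2F3 (chr6:20401759-20401878, plus strand): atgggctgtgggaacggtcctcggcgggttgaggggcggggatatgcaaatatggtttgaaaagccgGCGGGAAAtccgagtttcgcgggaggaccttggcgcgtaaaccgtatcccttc
E2F1 held 2 matches, which begin 33 and 20 bases before the start. E2F2 held 1 that begins 42 bases before it, and the first of 2 E2F3 windows held 1 that begins 53 bases before it. TFDP1 also held 1, and the windows of E2F4, E2F6, E2F7 and TFDP2 held none of these spellings. Among all 35116 promoter windows 2.79% held a match, among 54 windows of the E2F target list 27.8%, and among 22 windows of the RB pathway list 1 did. E2F1, E2F2 and E2F3 all held the motif, and their differences on the highest probe set were 0.33, 0.34 and -0.14.

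E2F output was read from a list of 41 genes known as E2F targets in DNA replication and S phase, of which 39 were measured. With 1 probe set a gene, 5 rose and none fell, against a background of 6.78% of genes higher and 4.60% lower (11.4% in either direction). The median of the list was 0.02 against 0.00056 over all genes tested. Those that rose were ORC1, a subunit of the origin recognition complex (8.61 ± 0.092 in the miR-17 TuD arrays and 8.23 ± 0.11 in the NC TuD arrays, difference 0.38, adjusted p = 0.0445 in limma), the S phase cyclins CCNE1 (0.32, adjusted p = 0.0434) and CCNE2 (0.31, adjusted p = 0.00923), the replication fork helicase factor CDC45 (0.20, adjusted p = 0.0189) and RRM2, the small subunit of ribonucleotide reductase (0.17, adjusted p = 0.0198). In the fit over all probe sets, ORC1 and CCNE1 did not pass the threshold (adjusted p = 0.0639 and 0.0624 in limma).

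CCNE2 rose on both of its probe sets, and its gene-level call held in each of 16 alternative fits (adjusted p up to 0.0455). It read 12.25 ± 0.032 in the miR-17 TuD arrays and 11.94 ± 0.037 in the NC TuD arrays (SD, n = 3 each). Among fits with an array left out, 6 in all, the CCNE1 call ended in 5, the ORC1 call in 6 and the CDC45 and RRM2 calls in 4 each (adjusted p up to 0.0814 and 0.0805). With the replicate block the calls of CCNE1 (adjusted p = 0.113), CDC45 (0.0884) and RRM2 (0.0663) ended too. The other 34 measured targets did not pass, at differences from -0.20 to 0.16. Their values include PCNA, the sliding clamp of replication, at 0.0006, and MCM7, a subunit of the replicative helicase and host of a miR-17 family cluster, at 0.10 (adjusted p = 0.0983).

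The count of 5 was 1, higher, without each of NC TuD replicates 1, 2 and 3, and 2 without miR-17 TuD replicate 2, with 1 higher and 1 lower. Over all genes tested, 2.68%, 2.68%, 3.67% and 5.82% were called in these fits in that order, against 11.4% with all arrays. Targets were called lower in 7 of 16 alternative fits, the fit without miR-17 TuD replicate 2 included, 1 in each. They were BRCA1, a DNA repair factor (in 3 fits), MCM10, a replication initiation factor (in 2), MCM3, a subunit of the replicative helicase (in 1), and MSH6, a mismatch repair factor (in 1), and their adjusted p in those fits ran from 0.0242 to 0.049. In the fit as reported BRCA1 differed by -0.20 (adjusted p = 0.0781 in limma), MCM10 by -0.13 (0.0563), MSH6 by -0.12 (0.0531) and MCM3 by -0.03. Of 10 proliferation markers, 0 passed in limma, against 11.4% of all genes tested. The mitotic cyclin CCNB1, higher by 0.07, was the only 1 with an unadjusted p under 0.05 (0.031 in limma with 1 probe set a gene). That share was counted only in the fit over all probe sets, at 22.1%. Differences in the list ran from -0.21 for MKI67 to 0.07 for CCNB1, with TOP2A at -0.15 and a list median of -0.013. MIR17HG, the host transcript of the miR-17 cluster and a known E2F target, lay at the lowest value on all 6 arrays of its 1 probe set.

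Genes that act on E2F through the RB pathway gave 6 higher and 2 lower of 19 measured, against 6.78% of all genes tested higher and 4.60% lower, with a list median of 0.11. CDKN1A, the cell cycle inhibitor p21, rose by 0.61, at 13.16 ± 0.071 in the miR-17 TuD arrays and 12.55 ± 0.046 in the NC TuD arrays (adjusted p = 0.00736 in limma). CCND1, the cyclin that starts RB phosphorylation, rose by 0.43 (adjusted p = 0.0453), its kinase CDK4 by 0.13 (adjusted p = 0.018), and CDKN2A, which encodes the CDK4 inhibitor p16, by 0.18 (adjusted p = 0.0219), beside CCNE1 and CCNE2. In the fit over all probe sets, CCND1 208712_at did not pass (adjusted p = 0.0652 in limma), while its other probe set, 208711_s_at, did (0.0155). CDKN1B, the inhibitor p27, fell by 0.29, at 11.99 ± 0.038 in the miR-17 TuD arrays and 12.28 ± 0.033 in the NC TuD arrays (adjusted p = 0.0103). SKP2, the ubiquitin ligase subunit that targets p27, fell by 0.25 (adjusted p = 0.0268). The calls therefore include inhibitors and promoters of the cell cycle in both directions.

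The CDKN1A and CDKN1B calls held in all 15 and all 16 alternative fits that gave them a value. The count of 8 dropped to 3, 4 and 3 without NC TuD replicates 1, 2 and 3 and to 5 without miR-17 TuD replicate 1. Over all genes tested, 2.68%, 2.68%, 3.67% and 7.92% were called in those fits in that order, against 11.4% with all arrays. The CCND1 call ended in all 6 fits with an array left out. The CDKN2A call ended in 5 of these fits, the SKP2 call in 4 and the CDK4 call in 3. SKP2 was also lost when the filter was dropped (adjusted p = 0.0547) and with the replicate block (0.0931), as was CDK4 with the block (0.0504).

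The pocket proteins themselves did not pass. RB1 read 3.37 on all 3 miR-17 TuD arrays and 3.45 ± 0.17 in the NC TuD arrays on 203132_at, near the low end of the scale (-0.08, adjusted p = 0.61 in limma at the gene level). RBL1, which encodes p107, differed by -0.04 (adjusted p = 0.802), and RBL2, which encodes p130, by 0.10 (adjusted p = 0.168). RB1, RBL1 and RBL2 each had probe sets of both signs, but the RB1 values carry little information on a difference. On 203132_at, NC TuD replicate 2 also read 3.37. The second RB1 probe set, 211540_s_at, read 3.31 on every array except NC TuD replicate 2 (2.88), which alone gave its difference of 0.14. RBL2 passed in the fit without miR-17 TuD replicate 1 (0.14, adjusted p = 0.0264). Of 13 measured partners in the MuvB and E2F6 polycomb complexes, 0 passed in limma and 0 had an unadjusted p under 0.05, at differences from -0.15 to 0.14. Over all genes tested 11.4% were called, so 0 called among 13 is near that background. The share with an unadjusted p under 0.05 was counted only over probe sets, at 22.1%.

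**Figure D3:**
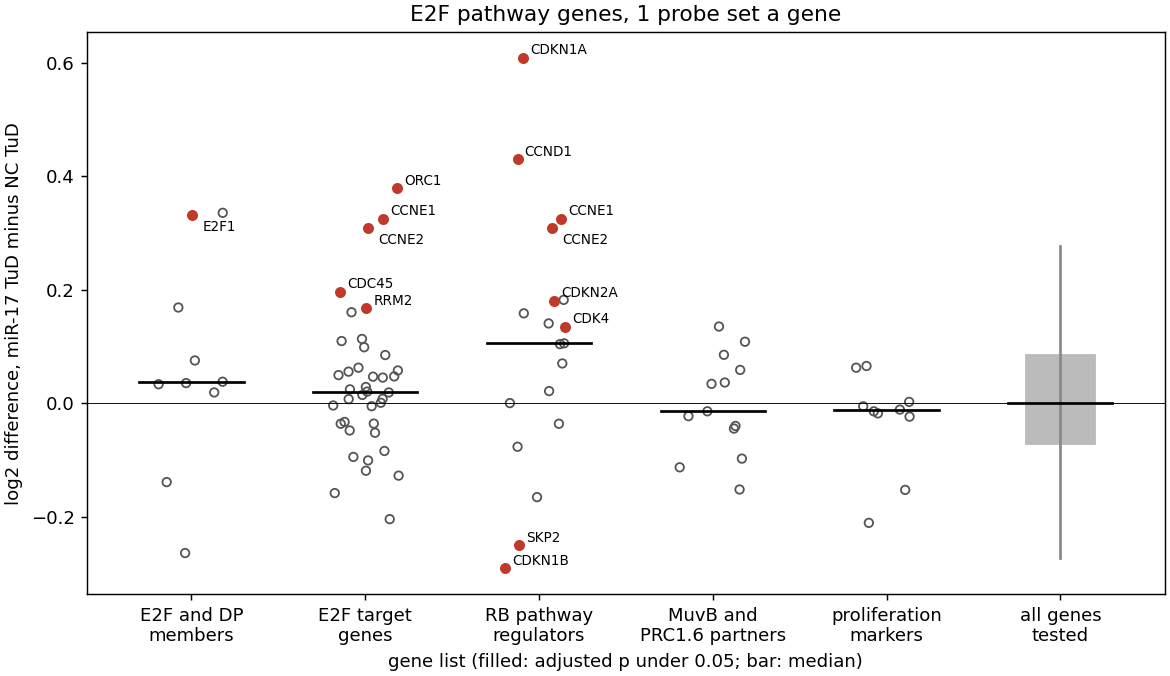
Log2 difference, miR-17 TuD minus NC TuD, of each measured gene by list, with filled red points for an adjusted p under 0.05 and a bar at each list's median; at right the line spans the 5th to 95th percentile and the box the 25th to 75th over all 13949 genes. The lists shown are the members, the E2F targets, the RB pathway regulators, the MuvB and polycomb partners and the proliferation markers, and CDKN1A at 0.61 is the highest point among them.

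The genes whose pattern over the 6 arrays was nearest to that of E2F1 204947_at were found by the root mean square distance between values centred on each gene's own mean, among 13939 other genes. They were TCTA (distance 0.026), BTN3A3, a butyrophilin (0.028), POP1, a protein subunit of RNase P (0.03), TMT1B, a thiol methyltransferase (0.034), and DUS3L, a tRNA dihydrouridine synthase (0.036), on the log2 scale. In all 5 the miR-17 TuD arrays lay above the NC TuD arrays, with differences from 0.28 to 0.35, so the likeness reflects the group difference over 6 arrays. Within the family the nearest were E2F5 (0.11) and E2F2 (0.11), and E2F8 was the farthest (0.30). E2F5 and E2F2 ranked only 940 and 996 by nearness to E2F1 among all genes tested.

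**Figure D4:**
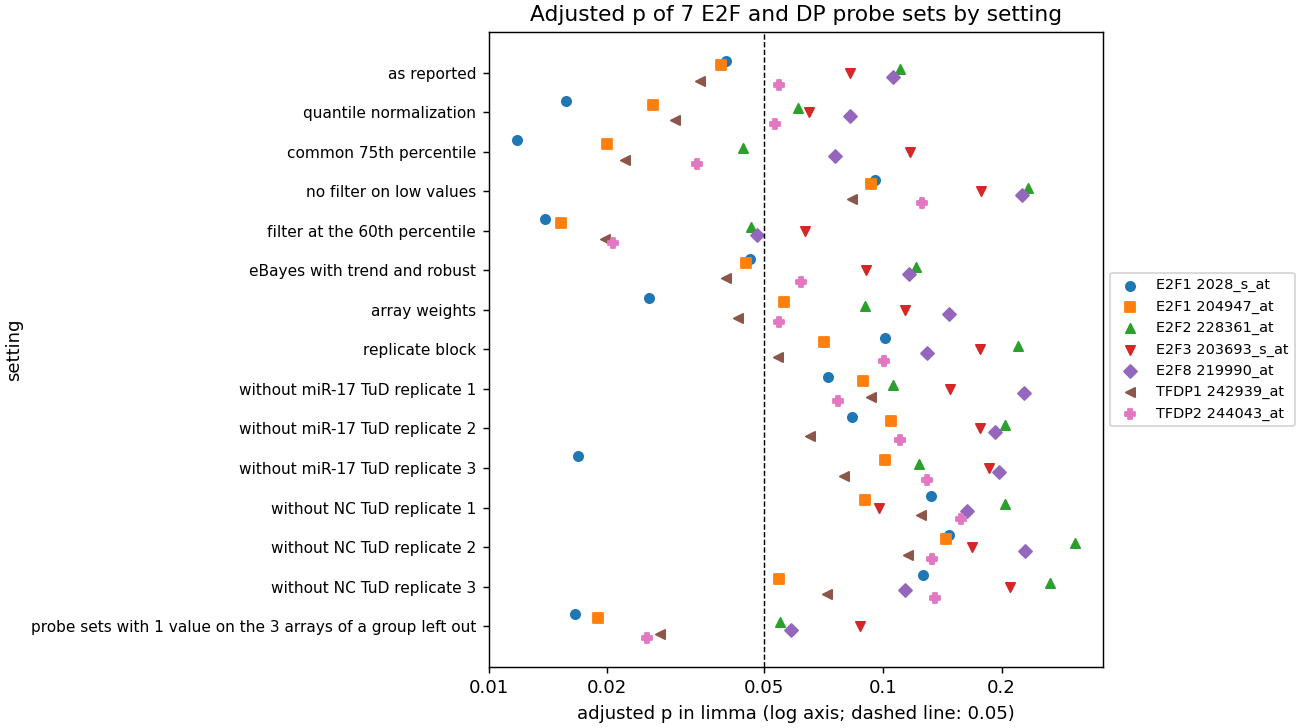
Adjusted p in limma, on a log axis, of the 7 member probe sets with an unadjusted p under 0.05, under the reported settings (top) and each alternative; the dashed line marks 0.05. All 7 lie right of the line with no filter and with the replicate block, and with 1 array left out only E2F1 2028_s_at lies left of it, in the fit without miR-17 TuD replicate 3.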

How the data were processed

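The authors' deposited values are log2 expression, 1 per probe set and array, and no other measure was used. RMA and GCRMA are both listed, per the submitters' processing notes, which do not say which step each did. About 35% of values share the lowest level, where changes of weakly expressed genes cannot be seen. The platform annotation gives 41091 probe sets 1 symbol, 1801 several and 11721 none, and symbols were updated through Entrez identifiers (41037 matched). The 62 control probe sets were left out.

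Probe sets whose mean over 6 arrays was over the 40th percentile (2.14) were tested with limma 3.58.1 in R 4.3.3 (lmFit, eBayes without trend, 2-sided). For genes, the probe set with the highest mean represented each gene. The pipeline was tested on simulated data, a check that required recovery only of planted differences larger than any seen in the members. Members and lists were chosen with earlier results of these data known. Named beside the members were the list genes past the threshold, RB1, RBL1, RBL2, MIR17HG, MCM7, CCNE1, CCNE2, CDKN1A and the 5 genes nearest to E2F1. PCNA, CCNB1, BRCA1, MCM10, MCM3, MSH6 and the marker genes were added after their values were seen. Probe sets ending in s_at or x_at can bind related transcripts.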

Additional observations from a re-analysis of the deposited data

How the results depend on the processing

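The 3 called member probe sets became 5 with a common 75th percentile and 6 of 19 tested with the filter at the 60th percentile. The count was 0 with no filter and 0 with the replicate block, and ranged from 0 to 1 when 1 array was left out. Over all probe sets tested 5.83% were called as reported, 8.37% with the 75th percentile and 15% with the 60th percentile filter. With 1 array left out that share ran from 0.443% to 3.52%. Array weights left 2, without E2F1 204947_at. The added calls were E2F2 228361_at (higher), TFDP2 244043_at (lower) and, with the 60th percentile filter, E2F8 (lower). The 1 called member gene became 3 with quantile normalization (E2F1 and E2F2 higher, E2F3 lower at -0.15, adjusted p = 0.0473), 2 with a common 75th percentile (E2F1 and E2F2), 3 with the 60th percentile filter (E2F1 and E2F2 higher, E2F8 lower at -0.26, adjusted p = 0.0365), 0 with no filter and 3 (the same genes as with the 60th percentile filter) with probe sets at 1 value on the 3 arrays of a group left out, an alternative chosen after seeing the data, and ranged from 0 to 1 with 1 array left out. The 5 called target genes became 3 with no filter, 2 with the replicate block and 3 of 28 measured without s_at and x_at probe sets, and ranged from 1 to 5 with 1 array left out. The 8 called RB pathway genes became 5, 4 and 3 under the same settings, and ranged from 3 to 6. Over the whole table the block left 0 of 32768 probe sets (1910 without it) and 822 of 13949 genes (1588). The same replicate numbers gave correlations of deviations of 0.032, 0.13 and 0.10, each the best match of both arrays, and other pairs gave -0.10 to 0.0010. As not all were over 0.1, the fit as reported did not pair the samples. These values do not settle whether the numbers pair them. With no filter, 54613 probe sets were tested and 1.01% called, and 3.99% of genes. Among all genes, 13.3% were called with quantile normalization, 14.1% with the 75th percentile and 19.5% with the 60th percentile filter, against 11.4% as reported. That share was 15.8% with probe sets at 1 value on the 3 arrays of a group left out and 8.33% without s_at and x_at probe sets. It ran from 2.68% to 8.91% with 1 array left out.

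Signs changed only in uncalled values. Averaging probe sets gave -0.014 for E2F7, -0.10 for TFDP2, 0.032 for RB1 and 0.086 for RBL1, and leaving out s_at probe sets gave -0.052 for TFDP2. With 1 array left out, the differences ranged from -0.082 to 0.023 for TFDP2 203589_s_at, -0.16 to 0.044 for TFDP2 226157_at, -0.011 to 0.055 for E2F7 228033_at, -0.075 to 0.00047 for E2F7 241725_at, -0.00020 to 0.067 for E2F6, -0.14 to 0.021 for RB1 and -0.078 to 0.044 for RBL1. The cause was not tested. E2F3 and E2F5 have only s_at probe sets.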
